A study of Mus musculus with 6 samples.

Results

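Basophils and mast cells were followed in lungs of C57BL/6N mice that breathed room air or recovered from neonatal hyperoxia. The cells described are those that the authors placed in a class named Mast Basophils in the libraries of postnatal day 1 or in a class named Basophils in the libraries of day 21. They numbered 194 of 55882 cells with a class, in 76024 deposited barcodes. The study gave 6 single-cell RNA libraries of dissociated lung sorted for live cells, each from the pooled lungs of 3 mice of 1 sex. The groups were day 1 in room air (21% oxygen), day 21 in room air, and day 21 after 95% oxygen from day 1 to day 5 followed by room air, each with 1 female and 1 male library. The mice were wild type, and the study asked how recovery from neonatal hyperoxic lung injury differs between the sexes. Each combination of age, treatment and sex had 1 library, so intervals of single libraries cover counting error only. Tests across libraries take the spread from what sex and age, or sex and treatment, leave between the libraries, shared across genes.

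Basophils and mast cells are granulocytes that carry the high-affinity IgE receptor and release histamine when it is cross-linked. Both store carboxypeptidase A3 and histamine in granules. Basophils leave the bone marrow mature, circulate, and make the proteases Mcpt8 and Prss34, whereas mast cells finish their development in tissue, depend on the receptor Kit, and fill their granules with chymases such as Cma1 and Mcpt4 and the tryptase Tpsb2. In the lung, resident basophils are known for making growth factors and cytokines that act on alveolar macrophages.

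The sequences that separate these cell types in the data are those of the granule proteases. Mcpt8, Cma1 and Mcpt4 are serine proteases encoded on chromosome 14, and Cpa3, which both cell types use, lies on chromosome 3. GATA factors act in both lineages, so the 250 bases before the annotated start were searched on both strands for GATAA, which reads TTATC on the other strand. The 4 promoters are given 5′ to 3′ on the strand of the gene, from RefSeq (GRCm38.p6), with matches in capitals. All 4 genes are on the minus strand, Mcpt8 at chr14:56085198-56085447, Cma1 at chr14:55944676-55944925, Mcpt4 at chr14:56062311-56062560 and Cpa3 at chr3:20242182-20242431.
Mcpt8: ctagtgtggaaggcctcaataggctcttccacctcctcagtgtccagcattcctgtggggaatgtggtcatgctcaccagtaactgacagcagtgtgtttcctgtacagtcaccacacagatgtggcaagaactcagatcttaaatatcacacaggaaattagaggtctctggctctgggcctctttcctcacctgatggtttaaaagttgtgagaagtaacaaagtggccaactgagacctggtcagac
Cma1: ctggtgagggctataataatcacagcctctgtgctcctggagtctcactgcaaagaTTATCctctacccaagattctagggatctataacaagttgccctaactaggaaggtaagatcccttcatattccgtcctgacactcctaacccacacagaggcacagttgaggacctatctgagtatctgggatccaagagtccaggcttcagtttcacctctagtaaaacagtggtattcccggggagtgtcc
Mcpt4: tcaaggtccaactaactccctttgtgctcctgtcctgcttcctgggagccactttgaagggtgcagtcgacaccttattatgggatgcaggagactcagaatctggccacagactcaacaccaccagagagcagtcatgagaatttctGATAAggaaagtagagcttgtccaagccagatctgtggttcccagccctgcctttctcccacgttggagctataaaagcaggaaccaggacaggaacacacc
Cpa3: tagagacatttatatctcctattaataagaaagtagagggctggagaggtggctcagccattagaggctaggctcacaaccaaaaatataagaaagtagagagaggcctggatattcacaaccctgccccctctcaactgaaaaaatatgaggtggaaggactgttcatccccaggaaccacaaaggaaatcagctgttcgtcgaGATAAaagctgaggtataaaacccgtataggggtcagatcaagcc
Mcpt8 had no match in this window. Cma1 had 1 match 189 bases before the start, Mcpt4 had 1 at 97 bases and Cpa3 had 1 at 40 bases. Prss34, the other basophil protease, had 1 at 25 bases and Fcer1a had 1 at 87 bases. Ms4a2, the beta chain of the IgE receptor, had 3 matches, at 219, 32 and 5 bases. Of 32851 promoters in the table, 22.6% held GATAA, so a match here is a description of the window. The letters CANNTG, the core bound by Mitf and other factors of that family, were in 66.2% of the promoters and occurred 3 times in that of Mcpt8, 1 time in that of Cma1 and 0 times in that of Mcpt4.

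The libraries held 10533 to 14968 barcodes, and up to 32.8% of a library's barcodes had no class. Median depth per library was 8329 to 9703 UMIs (unique molecular identifiers, 1 per counted transcript) over classed cells. The basophil and mast cells of the 4 room air libraries had medians of 8004 to 9692 UMIs. A doublet caller marked 1 of 32 class cells in the female day 1 library but 11 of 24 in the male one, and 2 of 74 and 1 of 57 at day 21 in room air. Levels of genes listed for other cell types differed between the libraries. The summed level of 10 neutrophil genes in the male day 1 class was 1534 CPM (the gene's UMIs as a share of all UMIs of the class cells of a library, on the usual CPM scale) against 257 CPM in the female day 1 class, and at day 21 in room air it was 517 CPM in the female and 1409 CPM in the male class. In both male classes 1 cell gave most UMIs of the neutrophil genes S100a8 and S100a9. The epithelial list was at 1464 CPM in the male and 506 CPM in the female day 1 class. Part of these sums lay in genes spread over the class cells. Cxcr2, of the neutrophil list, was at 371 CPM in the female (65 of 74 cells) and 324 CPM in the male (51 of 57) day 21 room air class. Cdh1, of the epithelial list, was at 223 CPM in the female (25 of 32 cells) and 201 CPM in the male (21 of 24) day 1 class. None of the 194 class barcodes occurred in another library (0 of 194), although pairs of libraries shared 26 to 62 barcodes.

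The markers of the class were at the level of its name in room air. Ms4a2 was detected in 78.1% (exact binomial 95% interval 60.0 to 90.7) of class cells in the female and 83.3% (62.6 to 95.3) in the male library of day 1. At day 21 in room air it was detected in 98.6% (92.7 to 100) of female and 98.2% (90.6 to 100) of male class cells. With each cell thinned to 2000 UMIs, which left out no class cell, these shares were 43.8%, 45.8%, 78.4% and 80.7%. Mcpt8 was detected in 56.2% and 37.5% of class cells at day 1 and in 77.0% and 78.9% at day 21 in room air. Cpa3 was detected in 75.4% to 84.4% of class cells of the room air libraries, and Fcer1a, the IgE-binding chain, in 37.5% to 59.4%. Among all other cells with a class at most 0.682% held a UMI of any of the 4 genes, and among neutrophils, which should lack them, at most 0.269%. The eosinophil granule genes Epx and Prg2 and the platelet gene Pf4 gave 1 UMI in all over the class cells of the 4 room air libraries. Other genes of the eosinophil and platelet lists were detected there. Siglecf gave 14 and 8 UMIs at day 1 and 21 and 8 at day 21. Itga2b gave 19 and 6 and then 105 and 53, and Itgb3 gave 17 and 8 and then 44 and 42. Since the classes were made by clustering, these levels describe the class and test nothing.

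The class was a larger share of cells at day 21 than at day 1 in both sexes, and held 7 cells in all after hyperoxia. In the female libraries it held 32 of 11543 cells at day 1, which is 0.277% (exact binomial 95% interval 0.190 to 0.391), and 74 of 8510 at day 21 in room air, which is 0.870% (0.683 to 1.09). In the male libraries it held 24 of 11278 cells (0.213%, 0.136 to 0.316) and 57 of 7074 cells (0.806%, 0.611 to 1.04). The ratio of day 21 to day 1 was 3.14 in females and 3.79 in males. Over immune cells it was 1.95 and 2.26, and with doublets left out the male ratio was 6.51. After hyperoxia only 5 of 8358 female cells (0.0598%, 0.0194 to 0.140) and 2 of 9119 male cells (0.0219%) had the class. The difference between hyperoxia and room air was -0.810 percentage points (95% Newcombe interval -1.03 to -0.616) in females and -0.784 points (-1.02 to -0.592) in males. These are 14.5-fold and 36.7-fold lower shares, from 1 library each.

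Barcodes with the markers of the class were far more numerous than the class after hyperoxia. Barcodes with a UMI of at least 3 of Mcpt8, Cpa3, Fcer1a and Ms4a2, a rule set after seeing the data and called marker barcodes here, were counted over all deposited barcodes, with or without a class. Room air females of day 21 had 66 of them (0.602%, exact binomial 95% interval 0.466 to 0.765) and females after hyperoxia had 63 (0.523%). In males there were 49 in room air (0.465%, 0.344 to 0.615) and 38 after hyperoxia (0.291%). The difference was -0.0786 points (Newcombe interval -0.278 to 0.116) in females and -0.174 points (-0.343 to -0.0177) in males. The interval of the female difference included 0, and that of the male difference did not. With all 4 markers required the male difference was -0.0104 points (-0.112 to 0.0830), and with at least 2 it was -0.137 points (-0.331 to 0.0469), so its interval included 0 under both of these rules. It lay below 0 with 3 markers and doublets left out (-0.169, -0.343 to -0.00757), mast protease barcodes left out (-0.182, -0.350 to -0.0262) or only the barcodes used for the expression tests (-0.184, -0.346 to -0.0346). At day 1 there were 25 and 28 marker barcodes (0.167% and 0.194%), and the share at day 21 in room air was higher by 0.435 points (0.284 to 0.607) in females and 0.271 points (0.129 to 0.432) in males.

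The marker barcodes of the hyperoxia libraries stood outside the authors' classes. In room air at day 21 the class took in 59 of 66 female marker barcodes (89.4%, exact binomial 95% interval 79.4 to 95.6) and 46 of 49 male ones (93.9%). After hyperoxia it took in 3 of 63 (4.76%) and 1 of 38 (2.63%). No class had been given to 59 of the 63 female and 34 of the 38 male marker barcodes after hyperoxia, against 5 of 66 and 2 of 49 in room air. The unclassed marker barcodes of the hyperoxia libraries had a median of 8416 (female) and 7614.5 (male) UMIs and 1.72% and 1.88% mitochondrial UMIs, and 7 of 59 and 1 of 34 were called doublets. Those of room air had medians of 18109 and 40821.5 UMIs, and 4 of 5 and 2 of 2 were called doublets. The 5 and 2 class cells of the hyperoxia libraries had medians of 15388 and 14218.5 UMIs, and 3 of the 7 were called doublets. Why the class left out the hyperoxia barcodes is not given in the sources used here, and a loss of cells and a difference in how the class was assigned cannot be told apart from the class shares alone.

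**Figure D1:**
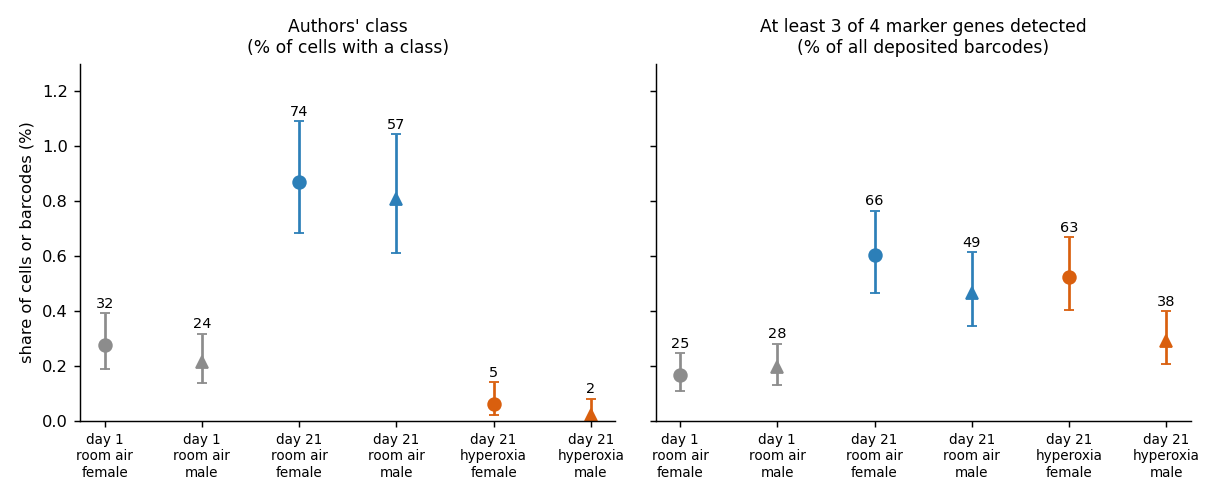
Share of cells or barcodes (%, vertical axis) in each of the 6 libraries, for the authors' class over cells with a class (left) and for barcodes with at least 3 of the 4 marker genes over all deposited barcodes (right). Points are single libraries (circle female, triangle male), bars are exact binomial 95% intervals and the numbers are the cells counted. The class falls to 5 and 2 cells after hyperoxia, whereas 63 and 38 marker barcodes were counted there.

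Mast cells were a small and sharply separate group. UMIs of the mast cell proteases Cma1, Mcpt4 and Tpsb2 were summed per cell. In the female day 1 class 5 of 32 cells held 699 to 1610 of these UMIs, and the other cells held none. In the male day 1 class 1 of 24 cells held 740 and the others none. At day 21 in room air 1 of 74 female class cells held 27 UMIs, and that cell was called a doublet, while none of the 57 male cells held any. No class cell of the 4 room air libraries held between 1 and 9. The plot of protease UMIs per cell shows this gap.

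The 6 mast cells of day 1 differed from the basophils of the same libraries well beyond the proteases. Over the 6 cells Cpa3 was at 18014 CPM, Kit at 1659, Hdc, the enzyme that makes histamine, at 4264, and Il1rl1, the receptor for interleukin 33, at 1604 CPM. In the 18 day 1 class cells with at least 25 UMIs of Mcpt8 and Prss34 together, Cpa3 was at 996 CPM, Kit at 0, Hdc at 1199 and Il1rl1 at 238 CPM. Several secreted factors were higher in the basophils. Ccl3 and Ccl4, chemokines that draw in leukocytes, were at 3024 and 1558 CPM in those basophils and at 0 in the mast cells, and Ccl6, Ccl9, Hgf, Il6 and Osm were at 0 in the mast cells too, whereas Il4 was at 109.7 CPM in the mast cells and 152 CPM in the basophils. Ms4a2 was at 733 CPM in the basophils and at 68.5 CPM in the mast cells. Barcodes of this kind also lay outside the class. Over all deposited barcodes, 9 female and 8 male barcodes of day 1 held at least 10 mast protease UMIs, of which the class held 5 and 1, while 3 and 5 had no class and 1 and 2 were in the NK Cells class. In room air at day 21 there were 2 and 3, of which the class held 1 and 0. The difference of day 21 from day 1 was -0.0419 points (Newcombe interval -0.0976 to 0.0141) in females and -0.0269 points (-0.0839 to 0.0348) in males, and both intervals included 0. The class cells above were chosen by the proteases, come from 2 libraries and are described without a test. Mast cells were thus a minority of the class named Mast Basophils. A UMI of Mcpt8 or Prss34 was held by 19 of its 32 female and 9 of its 24 male cells, and 1 of the 19 was a mast cell. UMIs of neither protease group were found in 9 female and 14 male cells, of which 0 and 9 were called doublets. In these cells Ms4a2 was at 477 and 214 CPM and the neutrophil list at 255 and 2436 CPM. None of the 4 markers was detected in 1 female and 3 male class cells.

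The level of the basophil proteases varied widely between cells. Cells with at least 25 UMIs of Mcpt8 and Prss34 were 13 of 32 and 5 of 24 at day 1 and 7 of 74 and 6 of 57 at day 21 in room air. They held 96.7% and 99.2% of the class's UMIs of these genes at day 1, and 77.7% and 86.8% at day 21, shares that follow in part from choosing the cells by the same UMIs. A single cell gave 73.7% of the Prss34 UMIs of the male day 21 class and 66.4% of those of the male day 1 class. At day 21 a lower level was widespread, with 89 of 131 class cells at 1 to 24 UMIs. The count of 89 leaves out the female cell with mast cell protease UMIs, which held 6 UMIs of Mcpt8 and Prss34. The 13 high cells of day 21 had 951 CPM of Csf1, 3990 of Ccl3 and 2902 of Ccl4, and the 89 cells with 1 to 24 UMIs had 2008, 6462 and 6505 CPM. Il6 went the other way, at 1403 CPM in the high cells and 815 CPM in those 89 cells. In the male day 21 class Il6 was at 966 CPM in the high cells, 676 in those with 1 to 24 UMIs and 1179 in those with none. At day 1 the 18 high cells had 516 CPM of Csf1, 3024 of Ccl3 and 1558 of Ccl4. With the mast cells left out, the 9 day 1 cells with 1 to 24 UMIs had 573, 2729 and 1307 CPM. Ccl3 and Ccl4 were thus not lower in the high cells there.

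**Figure D2:**
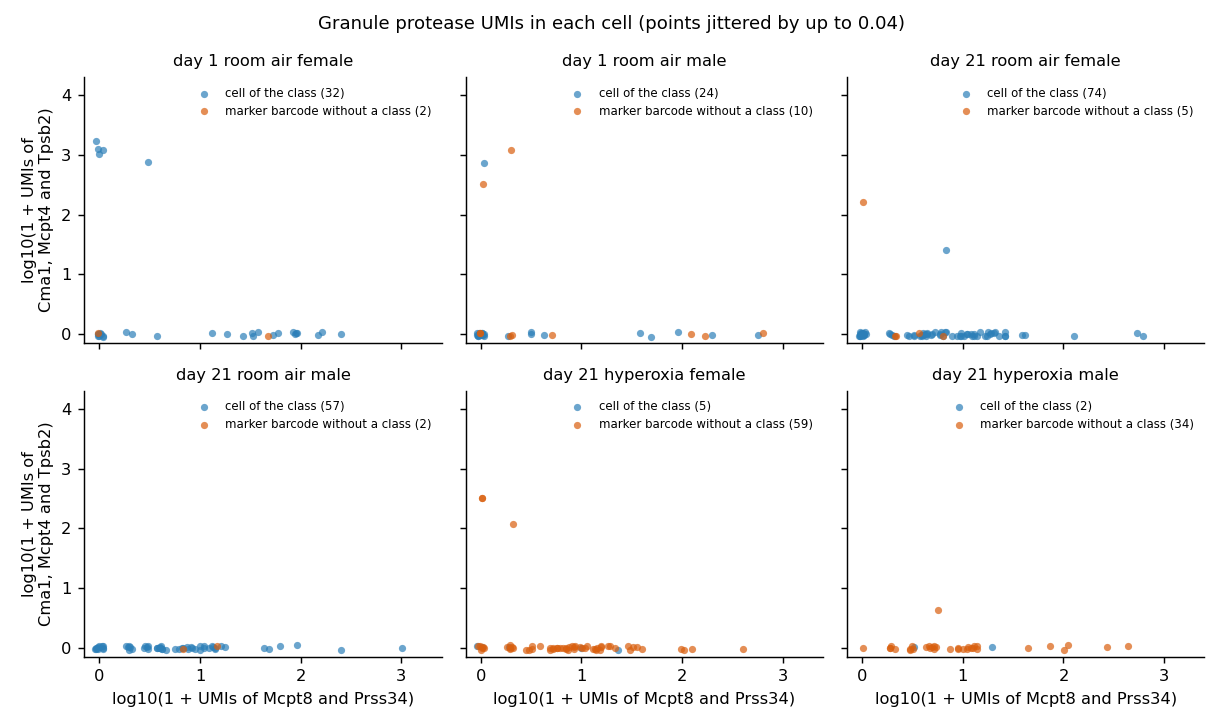
Each point is 1 cell, with log10(1 + UMIs) of the basophil proteases Mcpt8 and Prss34 on the horizontal and of the mast cell proteases Cma1, Mcpt4 and Tpsb2 on the vertical axis, 1 panel per library (blue, class cells; orange, marker barcodes without a class). In the class, day 1 cells hold 699 or more mast protease UMIs or none, and the hyperoxia panels are filled mostly by barcodes without a class.

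From day 1 to day 21 in room air the class rose in RNA of the secreted factors Ccl3, Ccl4, Csf1, Hgf, Il4 and Il6 and fell in that of Tnf and of the mast cell proteases. Set against neutrophils, the difference of Ccl3 and Tnf was called and that of Ccl4, Csf1 and Hgf was not, and Il4 and Il6 could not be read. The comparison sets the Basophils class against the Mast Basophils class. Age, the name of the class and the version of the counting software (Cell Ranger 6.0.0 at day 1 and 7.0.1 at day 21, per the file headers) change together and cannot be told apart. Of 5335 genes tested with edgeR's quasi-likelihood test, 1951 were called at an adjusted p under 0.05, or 36.6% of those tested, 1103 higher and 848 lower at day 21. Calls followed the genomic span of the gene. Split into 4 equal bins by span, the shortest genes (up to 10191 bases) had 5.02% higher and 35.1% lower, with a median log2 fold change of -0.57. The longest (63975 bases and more) had 52.9% higher and 3.97% lower, with a median of 1.02. Neutrophils of the same libraries showed the same gradient, from a median of -0.73 in the shortest to 1.13 in the longest bin, and 63.6% of their 9930 tested genes were called (33.8% higher, 29.8% lower). Cmss1 went from 15.5 and 4.37 CPM to 7015 and 4236 CPM in the class, and its log2 fold change was 8.91 in the class and 12.58 in neutrophils.

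**Figure D3:**
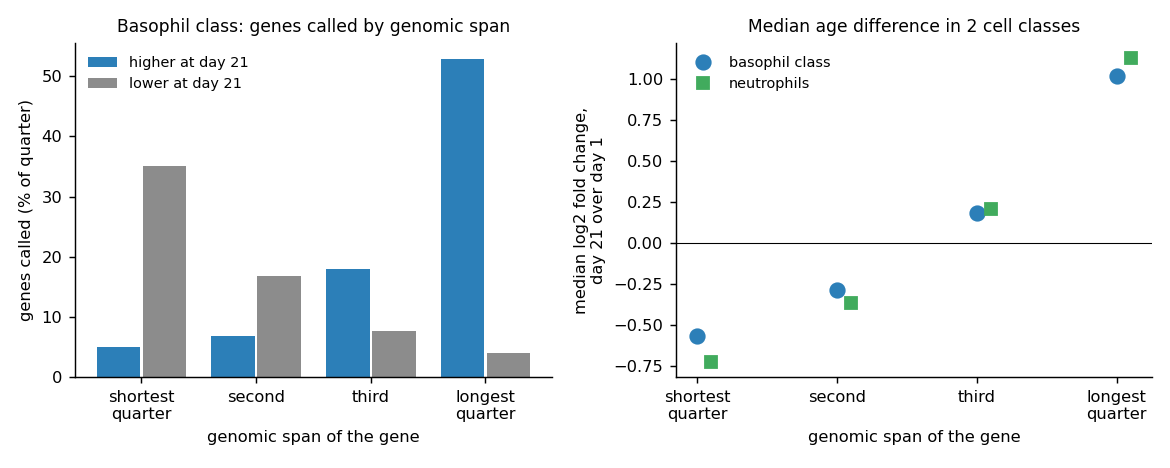
Left, share of tested genes (%) called higher or lower at day 21 than at day 1 in the class, by 4 bins of genomic span; right, median log2 fold change of the same bins in the class (circles) and in neutrophils (squares). Calls turn from mostly lower among short genes to mostly higher among long genes, and the medians run from -0.57 to 1.02 in the class and from -0.73 to 1.13 in neutrophils.

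Because of that gradient, the age difference of the class was set against that of neutrophils, another granulocyte class counted in the same libraries. This interaction had 2 residual degrees of freedom. Of 10941 genes, 145 were called (1.33%), 69 higher (0.631%) and 76 lower (0.695%) in the class relative to neutrophils, and 1534 had an unadjusted p under 0.05. With the mast cells left out 114 were called, 96 of them among the 145. Against all other cells with a class in place of neutrophils 656 were called, and 97 of the 145 were among them in the same direction. The named genes below were called in each of the 3 fits, except that Itga2 missed the threshold against all other cells (log2 difference 0.61, adjusted p = 0.64).

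The age difference of the chemokine Ccl3 was higher in the class than in neutrophils. It was at 3024 and 1883 CPM in the female and male class at day 1 and at 5835 and 6167 CPM at day 21, so both day 21 libraries were above both day 1 libraries. In neutrophils it was at 34.2 and 26.6 CPM and then at 21.6 and 17.8 CPM. The log2 fold change was 1.18 ± 0.22 (SE; edgeR adjusted p = 8.6e-07) in the class, and the interaction was 2.13 ± 0.31 (adjusted p = 0.0057). Cxcr4, the receptor that holds leukocytes in the marrow and in tissue, was at 80.6 and 39.3 CPM at day 1 and at 404 and 399 CPM at day 21, a log2 fold change of 2.56 ± 0.30, with an interaction of 2.22 ± 0.36 (adjusted p = 0.012). Itga2, the integrin chain known as CD49b that marks basophils, went from 109 and 87.4 CPM to 344 and 299 CPM, with an interaction of 2.21 ± 0.44 (adjusted p = 0.032). Ccl9 was level in the class, at 2140 and 2189 CPM and then 1929 and 2495 CPM, and the interaction was 1.94 ± 0.40 (adjusted p = 0.038). In neutrophils it was at 20.1 and 21.3 CPM and then at 8.12 and 3.78 CPM (log2 fold change -1.87). The call thus reflects a fall at a low level in neutrophils and no rise in the class.

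Tnf fell in the class. It gave 34 and 13 UMIs (105 and 56.8 CPM) in the female and male class at day 1 and 1 and 0 UMIs at day 21, although the day 21 class held more cells. The log2 fold change was -6.35 ± 0.76 (edgeR adjusted p = 6.0e-15), and -5.79 with the mast cells left out. Neutrophils had 18.7 and 9.90 CPM at day 1 and 23.8 and 20.5 CPM at day 21, so the interaction was -6.93 ± 0.79 (adjusted p = 0.0023). Sgk1, a kinase induced by glucocorticoids, went from 363 and 284 CPM to 81.9 and 102 CPM, with an interaction of -2.09 ± 0.29 (adjusted p = 0.0048). Csf1r, the receptor for Csf1, gave 15 and 12 UMIs at day 1 and 1 and 3 at day 21, with an interaction of -4.19 ± 0.62 (adjusted p = 0.0062). In the male day 1 class 1 cell gave 50% of the Csf1r UMIs. With doublets left out Csf1r had too few UMIs in the class to be tested, and the interaction was not fitted without doublets for any gene. Rasgrp4, an exchange factor of mast cells and other myeloid cells, gave 14 and 9 UMIs and then 0 and 5 (interaction -4.44 ± 0.77, adjusted p = 0.017), and Csf2ra, a chain of the GM-CSF receptor, gave 16 and 17 and then 8 and 6 (-2.07 ± 0.45, adjusted p = 0.046). Adgre1, known as F4/80, was called in the interaction (-2.73, adjusted p = 0.0054), but its own log2 fold change in the class was -0.55 (adjusted p = 0.17), against 2.42 in neutrophils.

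Several secreted factors were called higher at day 21 in the class. Of the cytokine and growth factor list 13 genes were tested in the class, and 8 were called higher and 2 lower, where 20.7% of all genes were called higher and 15.9% lower. The median log2 fold change of the 13 was 0.69, against -0.01 for all genes tested. With the mast cells left out, where 35.3% of 5075 genes were called, 6 of the 13 were called higher and 1 lower (median 0.49). In the interaction with neutrophils 2 of 15 tested genes of the list were called higher (Ccl3, and Ccl9, which was level in the class) and 1 lower (Tnf), with a median log2 difference of 0.31 against 0.20 for all genes. The summed level of the list was 10986 and 10010 CPM at day 1 and 23129 and 24802 CPM at day 21. Ccl4 went from 1529 and 1092 CPM to 6093 and 5956 CPM (log2 fold change 2.08 ± 0.22), Csf1, the growth factor of macrophages, from 552 and 350 to 2174 and 1596 CPM (1.93 ± 0.22), and Hgf, a growth factor of epithelium, from 242 and 223 to 1072 and 953 CPM (1.98 ± 0.24). Il6 went from 344 and 162 to 888 and 800 CPM (1.62 ± 0.24) and Il4, the cytokine of type 2 immunity, from 133 and 91.8 to 374 and 338 CPM (1.51 ± 0.27). Ccl6 and Osm rose by less, with log2 fold changes of 0.67 and 0.69, and were not called with the mast cells left out (adjusted p = 0.28 and 0.12). In neutrophils Ccl4, Hgf and Csf1 were higher at day 21 as well (log2 fold changes of 1.86, 1.66 and 1.12), and the interaction was not called for any of these 3 genes (adjusted p = 0.81, 0.51 and 0.18). Il4 and Il6 were at or near 0 in neutrophils and their interaction could not be read.

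**Figure D4:**
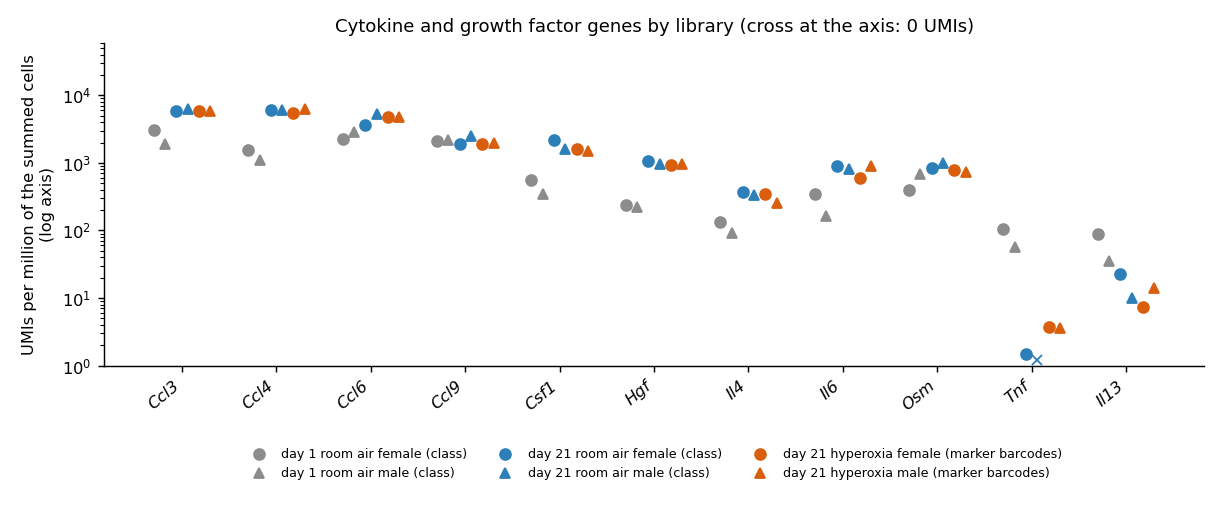
CPM (log axis) of 11 cytokine and growth factor genes, with 1 point per library: the class in the room air libraries of day 1 (grey) and day 21 (blue), and marker barcodes in the hyperoxia libraries (orange); circles are female, triangles male, and a cross marks 0 UMIs. Ccl3, Ccl4, Csf1, Hgf, Il4 and Il6 are higher in both day 21 libraries than in both of day 1, Tnf is lower, and the hyperoxia points lie near those of room air at day 21.

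Of 9 tested granule proteases 6 were called lower and none higher, and 7 of 8 tested mast cell genes were called lower, where 15.9% of all genes were. Mcpt4, Tpsb2, Mrgprb1 and Tph1 had 0 UMIs at day 21, so they entered the test through day 1 and could only be called lower. The counts of these 2 lists are therefore a description. With the mast cells left out 3 of 6 granule proteases were called lower (Mcpt8, Cpa3 and Ctsg). Neutrophils had few or no UMIs of the mast cell proteases, so their interaction could not be read. Mcpt4 gave 2166 and 297 UMIs at day 1 and none at day 21, at least 1732-fold lower against a floor of 3 UMIs over the group, and Tpsb2 gave 1744 and 233 and then none, at least 1390-fold lower. Cma1 gave 1716 and 210 UMIs and then 27 and 0 (log2 fold change -7.44 ± 0.33). All of the male day 1 UMIs of these 3 genes came from 1 cell, and their female day 1 UMIs came from the 5 mast cells. These folds are those of the class, which held 5 of 9 female and 1 of 8 male mast protease barcodes at day 1 and 1 of 2 and 0 of 3 at day 21, and were not measured over all barcodes. With these cells left out only 2 of the mast cell genes could be tested and neither was called. Cpa3 went from 4324 and 1298 CPM to 597 and 576 CPM (log2 fold change -2.19 ± 0.23), and the change was -0.62 (edgeR adjusted p = 0.040) without the mast cells. Kit went from 357 and 78.6 to 78.9 and 18.3 CPM, and its log2 fold change of -2.30 became -0.27 (adjusted p = 0.76) without them. Mcpt8, at 2413 and 2154 CPM and then 1442 and 1771 CPM, had a log2 fold change of -0.65 ± 0.21 (adjusted p = 0.0072), and one male day 1 cell gave 54.8% of that library's UMIs. Prss34 was not called (-0.19 ± 0.21), but was called lower with doublets left out (-0.55, adjusted p = 0.030) and higher with equal numbers of cells (0.58, adjusted p = 0.017).

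The receptor and its signalling genes went in both directions. Against the 20.7% of all genes called higher and 15.9% called lower, the counts of the lists below are descriptions. DESeq2 called fewer of the 5335 genes, 319 higher and 147 lower, and its list counts are to be set against these. Ms4a2 rose from 493 and 398 CPM to 849 and 949 CPM (log2 fold change 0.87 ± 0.22, edgeR adjusted p = 5.8e-04), and Hdc rose from 2044 and 1241 to 3799 and 3827 CPM (1.11 ± 0.21), with a rise of 0.87 in neutrophils too. Of 16 tested genes of IgE receptor signalling 6 were called higher and 3 lower (median 0.50; DESeq2 3 and 0), and 11 of 14 tested in neutrophils were called higher. Gab2, an adaptor of the receptor, had a log2 fold change of 4.97 in the class and 4.50 in neutrophils. Of 12 transcription factors of these lineages 7 were called higher and 1 lower (DESeq2 4 and 1). Runx1 went from 459 and 306 CPM to 2608 and 1677 CPM (log2 fold change 2.34 ± 0.23) with 2.53 in neutrophils, and Gata2, a factor both lineages need, was not called. Of 18 cytokine receptors 6 were higher and 5 lower (DESeq2 6 and 1). Il18r1 and Il7r rose to 768 and 647 CPM and to 553 and 568 CPM (2.33 ± 0.26 and 2.37 ± 0.27), and neither was called in the interaction (adjusted p = 0.085 and 0.98). Of 7 p53 targets 3 were lower and none higher (DESeq2 called 1, Cdkn1a), with Cdkn1a, the cell cycle inhibitor p21, at 102 and 162 CPM and then 35.7 and 28.5 CPM.

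Female and male cells of the room air libraries were compared with age as a covariate. This comparison called 61 of 5335 genes (1.14%), 29 higher (0.544%) and 32 lower (0.6%) in females, and DESeq2 called 2, S100a8 and S100a9. Xist, transcribed from the inactive X chromosome, gave 216 and 334 UMIs in the female and 0 in the male libraries, at least 133-fold higher. DESeq2 gave it a log2 fold change of 10.0 and did not call it. A low count of DESeq2 calls thus does not show that differences are absent. Several other calls came with few cells. Mcpt4, Tpsb2, Cma1, Kit and Cpa3 were called higher in females, whose day 1 class held 5 mast cells against 1 in males. Over all barcodes of these libraries, however, 9 and 8 mast protease barcodes were found. Mcpt4, Tpsb2, Cma1 and Cpa3 changed sign with the female day 1 library left out, in a fit without age as covariate. That fit set the female day 21 library against the male libraries of both ages, so it mixed age with sex. S100a8 and S100a9, calprotectin genes of neutrophils, were called lower in females, and 1 cell gave 85.6% and 97.8% of their UMIs in the male day 1 class and 98.3% and 93.5% in that of day 21. With doublets left out both changed sign (log2 fold changes of 0.89 and 1.12). Ccl3, Ccl4, Csf1, Hdc, Mcpt8, Ms4a2 and Gata2 were not called (log2 fold changes of -0.09 to 0.51).

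Hyperoxia was not tested in the class itself, whose 5 and 2 cells were under the minimum of 10 cells a library set for a fit. The comparison was made on marker barcodes of day 21 that were in the class or had no class and held at most 28448 UMIs, the highest value of a room air class cell. These were 63 and 46 barcodes in room air and 60 and 33 after hyperoxia. Since they were chosen by Mcpt8, Cpa3, Fcer1a and Ms4a2, the levels of these 4 genes are a description. Few genes were called. Of 5883 genes, 6 were called (0.102%), 4 higher (0.068%) and 2 lower (0.034%), and 246 had an unadjusted p under 0.05. DESeq2 called 0, with 15 at an unadjusted p under 0.05.

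The secreted factors of basophils did not pass the test in either direction after hyperoxia. Ccl3 was at 5458 and 6230 CPM in the female and male marker barcodes of room air and at 5905 and 5815 CPM after hyperoxia (log2 fold change 0.03 ± 0.18). Ccl4 was at 5668 and 5935 CPM and then 5481 and 6371 CPM (0.05 ± 0.18), and Csf1 at 1930 and 1616 CPM and then 1620 and 1474 CPM (-0.17 ± 0.16). The 2 groups overlapped for all 3 genes, though Csf1 was lower after hyperoxia within each sex. The 12 tested genes of the list had a median log2 fold change of -0.04, against 0.00 for all genes. Hdc was at 3531 and 3837 CPM and then 3328 and 3077 CPM, and Gata2 at 699 and 760 CPM and then 676 and 694 CPM. Of the lists of histamine and eicosanoid genes, cytokines, receptors, transcription factors, p53 targets, interferon-stimulated genes and glucocorticoid targets, none had a called member. With 0.102% of all genes called, lists of this length would hold none at the background share either. On simulated counts of this comparison 98% of genes raised 4-fold and 66.7% of those lowered 4-fold were called, but 18% of those raised and 11.6% of those lowered 2-fold. Most differences of 2-fold and some falls of 4-fold were thus missed in the simulation. It gave all genes the same spread, set by hand, and did not model single barcodes that give most UMIs of a gene. The sensitivity for the real counts was therefore not measured and may be lower.

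Of the 6 called genes, Gm2682, Cma1 and Tpsb2 were each detected in at most 3 barcodes of a library. Gm2682, a long noncoding RNA of chromosome 15, gave 0 UMIs in room air and 107 and 20 after hyperoxia, at least 52.7-fold higher. These came from 3 female barcodes and 1 male barcode. The gene entered the test through the hyperoxia libraries and could only be called higher, so its call is a description. Cma1 gave 105 and 0 UMIs in room air and 413 and 3 after hyperoxia (log2 fold change 2.20 ± 0.29, edgeR adjusted p = 0.0012), and Tpsb2 gave 70 and 0 and then 308 and 0 (2.31 ± 0.30, adjusted p = 0.0013). Their female UMIs after hyperoxia came from 3 barcodes, all 3 of which were called doublets, and with doublets left out neither gene had enough UMIs to be tested. Over all deposited barcodes 9 female and 8 male barcodes held at least 10 mast protease UMIs after hyperoxia, against 2 and 3 in room air. The difference was 0.0565 points (Newcombe interval -0.00333 to 0.125) in females and 0.0328 points (-0.0302 to 0.0953) in males, and both intervals included 0. Without the female hyperoxia library, in a fit that also left out sex as covariate, the log2 fold changes of both genes changed sign (-3.03 and -7.74). The fitted barcodes left out other classes, and 6 of the 8 male mast protease barcodes after hyperoxia were in the T Reg class. With mast protease barcodes left out the fitted male sets stayed at 46 and 33, and the female ones went from 63 to 61 and from 60 to 57. The change of sign thus does not describe a fall in males. Ext1, an enzyme of heparan sulfate synthesis, gave 25 and 4 UMIs and then 85 and 10 (1.93 ± 0.34, adjusted p = 0.030), from 5 and 3 and then 8 and 2 barcodes. Cd74, the invariant chain of MHC class II, gave 71 and 10 and then 6 and 3 (-2.79 ± 0.52, adjusted p = 0.042), and 1 barcode gave 80.3% of the female and 70.0% of the male room air UMIs. Xist gave 291 UMIs in 43 of 63 female barcodes of room air and 77 in 19 of 60 after hyperoxia, and 0 in males (-1.73 ± 0.30, adjusted p = 0.030). With the mast protease barcodes left out only Gm2682 was called, while the log2 fold changes of Xist, Ext1 and Cd74 were -1.72, 1.96 and -2.79 (adjusted p = 1.00 for each), close to those above.

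Set against neutrophils of the same libraries, 19 of 10905 genes (0.174%) differed in their change after hyperoxia, 9 higher (0.0825%) and 10 lower (0.0917%) in the marker barcodes. Neutrophils alone had 99 of 10424 genes called (0.95%), 38 higher (0.365%) and 61 lower (0.585%). Ccl4 was the secreted factor among them. In neutrophils it was at 55.0 and 45.0 CPM in room air and at 18.8 and 16.4 CPM after hyperoxia, while the marker barcodes had the levels given above, and the interaction was 1.65 ± 0.31 (edgeR adjusted p = 0.0025). Against all other cells it was 0.82 (adjusted p = 0.12), which was not called. Il7r was called as well (-2.07 ± 0.36, adjusted p = 0.0012). Marker barcodes had 585 and 589 CPM of it in room air and 654 and 605 CPM after hyperoxia, and neutrophils had 2.74 and 1.98 CPM and then 7.57 and 17.2 CPM.

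**Figure D5:**
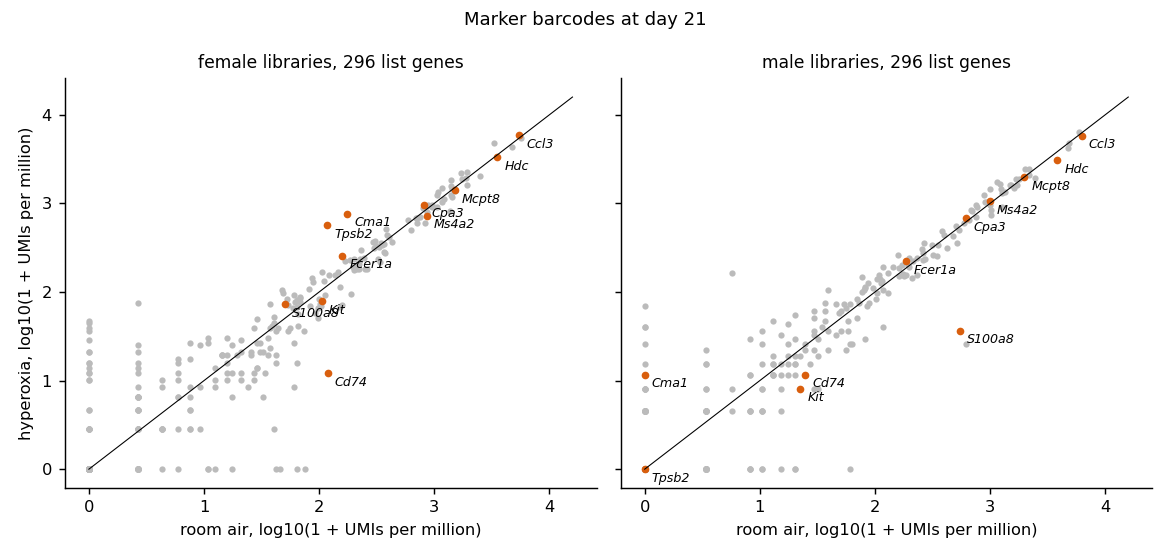
Level of 296 listed genes in marker barcodes of day 21, as log10(1 + CPM) in room air (horizontal) and after hyperoxia (vertical), for the female (left) and male (right) libraries; each point is 1 gene, the line marks equality, and some genes are labelled. Ccl3 and Hdc lie near the line in both sexes, and the positions of Mcpt8, Cpa3, Fcer1a and Ms4a2 are set in part by the choice of barcodes. In females Cma1 and Tpsb2 lie above it.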

How the data were processed

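Counts are UMIs per gene and barcode from 10x 3′ libraries. The authors made the deposited count matrices with Cell Ranger, 6.0.0 at day 1 and 7.0.1 at day 21 per the file headers; the submitters' processing notes list Cell Ranger 6.0.0, Seurat 4.1.1 and mm10. Whether introns were counted is not given in the sources used here. Classes are the authors' deposited cluster names. The members and the gene lists were chosen with earlier results of these data known.

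UMIs were summed per library over class cells, neutrophils, other classed cells or marker barcodes, and tested with edgeR 4.0.16 (R 4.3.3; TMM scaling, filterByExpr, quasi-likelihood test, sex or age as covariate, Benjamini-Hochberg adjustment over all genes tested). Genes were called at an adjusted p under 0.05, and every adjusted p is from edgeR unless DESeq2 (1.42.0) is named. With 1 library per combination, single fits had 1 residual degree of freedom. The error is what sex and age, or sex and treatment, leave between the libraries, with the spread shared across genes. The pooled mice of a library are not replicates. Shares have exact (Clopper-Pearson) and differences Newcombe 95% intervals. Fold bounds use a floor of 3 UMIs over the group. Standard errors (±) are the size of the log2 fold change divided by the square root of the F statistic of the quasi-likelihood test. Doublets were marked with Scrublet (scanpy 1.11.5) and kept. Genomic spans are from GENCODE (GRCm38), matched for 99.8% of genes. The fits were tested on simulated data. Named genes were the called genes with the largest changes, called list members and the most abundant list members. In the hyperoxia comparison Xist lay outside that rule. Xist and Ext1 were chosen after their values were seen. Alternatives were DESeq2, other scalings, filters and covariates, libraries, doublets and mast cells left out, and marker barcodes in place of the class. Fits with 1 library left out had no covariate.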

Additional observations from a re-analysis of the deposited data

Results flagged for a closer look

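Among barcodes to which the authors gave no class, those with at least 3 of the 4 basophil and mast cell markers were 59 of 3683 in the female hyperoxia library of day 21, or 1.60%, and 34 of 3938 in the male one, or 0.863%. In the room air libraries of the same age they were 0.204% and 0.0578% of unclassed barcodes. These barcodes lie outside the class, and their share after hyperoxia was above that of room air in both sexes.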

How the results depend on the processing

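Shares of the class moved with the denominator. Over immune cells they were 0.766% and 0.577% at day 1 and 1.496% and 1.304% at day 21 in room air, with differences of -1.37 and -1.25 points after hyperoxia. Over all deposited barcodes the room air shares of day 21 were 0.675% and 0.541%, and the male difference was -0.526 points. Without doublets the male day 1 share was 0.123%. Marker barcodes gave 0.167% (female day 1), 0.602% and 0.465% (day 21 room air) and 0.523% and 0.291% (hyperoxia), with differences of -0.0786 and -0.174 points. Calls of day 21 against day 1 were 466 with DESeq2 and 10 of 78 (12.8%) among genes without introns, and 384 to 1391 with 1 library left out, the lowest without the female day 21 library. With upper-quartile scaling they were 896 higher and 1028 lower, and the median of all genes was -0.152 in place of -0.01. Calls between the sexes were 2 with DESeq2, 13 without doublets, 0 with no covariate (edgeR, 29 at an unadjusted p under 0.05), 132 with no filter, 23 with upper-quartile scaling and 0 to 63 with 1 library left out (edgeR; 0 without the female day 1 or the female day 21 library, with 119 and 74 unadjusted). Calls after hyperoxia were 0 with DESeq2 (15 unadjusted), 10 without doublets, 11 with equal numbers of cells, 1 without mast protease barcodes, 1 with no covariate, 44 with no filter, 14 with upper-quartile scaling and 0 to 30 with 1 library left out (0 without either room air library, with 220 and 207 unadjusted). Against all other cells the interactions had 656 and 82 calls. Signs changed for Prss34 (0.58 with equal numbers of cells, adjusted p = 0.017, -0.50 to 0.18 with 1 library left out), Ccl9 (0.060 with no filter, -0.28 to 0.12), Lyz2 (0.68 without doublets, 0.75 in marker barcodes, -3.63 to 1.16), and Cdh5 and Ramp2 in marker barcodes (1.07 and 1.303). Between the sexes they changed for S100a8 and S100a9 without doublets (0.89 and 1.12), and without the female day 1 library for Cma1 (range -3.61 to 13.49), Mcpt4 (-11.31 to 13.81), Tpsb2 (-10.96 to 13.50) and Cpa3 (-0.74 to 2.24). After hyperoxia they changed for Cma1 (range -3.03 to 10.41) and Tpsb2 (-7.74 to 9.99) without the female hyperoxia library, and for Xist (-9.74 to 8.09) without the female room air library. The fits with 1 library left out had no covariate, so they mix the loss of a library with the loss of sex or age as covariate. Without the female room air library, Xist was compared between the male room air library and hyperoxia libraries of both sexes. The causes of the other changes of sign were not tested. The fits of age and hyperoxia pair libraries by sex through the covariate, and without it had 1606 and 1 calls. The planned fits of the class after hyperoxia, of sex over 6 libraries and of the hyperoxia interaction in the class were not run, since the class held 5 and 2 cells there, under the minimum of 10.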
